A study of Mus musculus with 6 samples.

Results

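The DNA recovered with an antibody against SMAD2 was set against the input chromatin of the same preparation, on the 2 arrays of the series that carried this antibody, of 6 arrays in all. These 2 arrays were taken by their titles, and hold different probes of 1 mouse promoter design: chromosomes 1 to 8 and part of 9 are on array 1, and the remainder, X and Y included, on array 2. The series measured binding of 3 SMAD antibodies (SMAD1/5, SMAD2 and SMAD4, 2 arrays each) by ChIP-chip, in which crosslinked chromatin is sheared, recovered with an antibody and hybridised to tiled probes. All samples came from R1, a mouse embryonic stem cell line, grown undifferentiated without feeder cells in medium with knockout serum replacement and leukemia inhibitory factor. No inhibitor, ligand, knockout or nonspecific antibody was part of the design, and the comparison is of immunoprecipitate (red, Cy5) with whole cell extract (green, Cy3) on each array. The design text gives 1 biological replicate for the antibody, and no array had its dyes swapped, so a dye effect and enrichment cannot be told apart. No value below has a replicate check, no p-value is given, and every SD or SE is over neighbouring probes of 1 array. The antibody was raised against the linker of recombinant human SMAD2; titles and sample types name SMAD2, while the extraction text of these same samples names an antibody against Smad1/5. The arrays measure DNA, not RNA, so the labelled cell type could not be checked against markers.

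SMAD2 is the receptor-regulated SMAD that Activin, Nodal and TGF-beta receptors phosphorylate; it then joins SMAD4, enters the nucleus and acts at sites held by partners such as the forkhead factor FOXH1. Full-length SMAD2 makes little direct contact with DNA, while SMAD3 and SMAD4 read the short element GTCT or its complement AGAC. In embryonic stem cells Nodal and Activin signalling is active, and its textbook targets are parts of its own circuit: Nodal, its antagonists Lefty1 and Lefty2, and the inhibitors Smad7 and Skil. A bound site would show as a run of neighbouring probes with more immunoprecipitate than input.

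Promoter sequences of 4 circuit genes are shown because among the circuit's promoter ratios described below Smurf1 was highest and Tdgf1 and Cer1 were lowest, and because Nodal is the ligand itself. Each is the 250 bases before the start site on the gene strand, from RefSeq (GRCm38.p6). Capitals mark AGAC or GTCT, searched on both strands.

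Smurf1 (chr5:144965831-144966080, minus strand): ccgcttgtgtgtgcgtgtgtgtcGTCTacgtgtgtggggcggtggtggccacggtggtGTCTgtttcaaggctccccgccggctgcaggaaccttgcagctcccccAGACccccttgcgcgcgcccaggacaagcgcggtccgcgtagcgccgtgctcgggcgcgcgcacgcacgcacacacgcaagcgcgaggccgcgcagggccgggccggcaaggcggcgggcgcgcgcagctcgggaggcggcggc
Tdgf1 (chr9:110946159-110946408, minus strand): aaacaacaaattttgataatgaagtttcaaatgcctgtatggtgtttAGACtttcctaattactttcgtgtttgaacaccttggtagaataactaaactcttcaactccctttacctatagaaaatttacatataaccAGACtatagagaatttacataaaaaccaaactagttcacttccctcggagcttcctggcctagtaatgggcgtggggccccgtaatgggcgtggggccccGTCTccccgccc
Cer1 (chr4:82885152-82885401, minus strand): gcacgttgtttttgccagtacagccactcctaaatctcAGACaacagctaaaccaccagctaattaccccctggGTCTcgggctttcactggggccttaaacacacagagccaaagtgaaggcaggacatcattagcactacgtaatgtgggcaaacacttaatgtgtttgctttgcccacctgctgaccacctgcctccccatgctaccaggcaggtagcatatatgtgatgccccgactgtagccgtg
Nodal (chr10:61417722-61417971, plus strand): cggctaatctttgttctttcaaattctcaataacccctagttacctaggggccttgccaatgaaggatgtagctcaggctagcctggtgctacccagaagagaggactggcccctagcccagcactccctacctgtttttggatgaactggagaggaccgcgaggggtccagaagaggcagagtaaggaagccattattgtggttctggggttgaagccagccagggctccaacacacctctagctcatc

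Smurf1 and Tdgf1 held 3 such elements each, Cer1 held 2, and none was found in the Nodal window. The element was present in 82.0% of the 12563 promoters matched in the table, of 16008 measured, in 85.2% of the 1005 with a SMAD2 promoter ratio past 1.5-fold higher, and in 82.7% of the 877 past 1.5-fold lower. The longer CAGAC or GTCTG, which overlaps it, was present in 41.3%, 43.4% and 37.9% of these promoters, and the palindrome GTCTAGAC in 0.183%, 0.199% and 0.342%. GGCGCC, a GC-rich element bound by BMP-regulated SMADs, was present in 13.8%, 10.4% and 7.41%. The FOXH1 element AATCCACA or TGTGGATT was present in 0.589%, 0.299% and 1.03%. A match is a description of letters and not a binding site.

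The ratio of immunoprecipitate to input is given as log2 of the processed signals, centred on the median of its array, so 0 is the typical probe and 1 is 2-fold above it. After outlier spots were left out (1.06% of array 1 and 1.82% of array 2), 234675 and 232871 probes were used. Median mean signal was 982 and 996 in the immunoprecipitate and 383 and 384 in the input, which is 13.9 and 14.1 times the local background in red and 7.45 and 6.90 times in green. Both channels were well above background for 86.8% and 84.1% of probes, called bright below. The 2 SMAD2 arrays were scanned at 10 µm per pixel and the other 4 at 5 µm, so scan resolution and antibody cannot be told apart. Single probes past 2-fold were nearly as common in both directions: 12.8% higher and 13.7% lower on array 1, 12.6% and 13.3% on array 2. The immunoprecipitate followed its input closely, with Pearson correlations of 0.837 and 0.840 across probes of an array, which are not independent replicates. The ratio also moved with input signal: with probes split by input signal into 10 equal bins, the median ratio was 0.64 in bin 1 (dimmest) and −0.33 in bin 9 on array 1, and 0.46 and −0.31 on array 2. What this dependence on input adds to any call below was not tested.

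High windows were first sought with a height rule: the mean of at least 3 probes within 500 bp of a central probe, at least 4 robust SDs above the array's median window, in which 2 or more probes lay in the top 5% of the array. That height corresponds to 4.90-fold on array 1 and 4.68-fold on array 2. Of 16486 genes measured, 11 reached it (0.0667%), while 56 reached the mirror image below the median (0.34%). Of these 11 genes 10 were on array 1, and none belongs to the Nodal circuit. Among them were Pard3, Shisa7, Hsfy2, Ilk, Cdk14, Psg17, Per1, Slc35e1, Rfwd3 and Rbm8a.

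Most of these windows held 1 very bright probe or a dim input. At Ilk, the integrin-linked kinase, 5 probes averaged 2.81 ± 2.88 (SD over probes), and the highest had 21660 in the immunoprecipitate against 94.7 in the input, 221-fold above the array's median ratio. At Psg17, a pregnancy-specific glycoprotein, 4 probes averaged 2.56 ± 3.65, and the highest had 19645 against an input of 77.8 that was not well above background, at least 244-fold. At Pard3, a cell polarity scaffold, 3 probes averaged 3.15 ± 3.54, 2 of them with dim input, and the same window was at −1.30 in the authors' deposited log2 values. In these 3 windows the SD over probes was larger than the mean. Over the 11 genes, 11 of 38 probes (28.9%) had an input not well above background, spread over 7 genes.

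Per1, a core component of the circadian clock, was more even. Its 4 probes, around −3467 bp from the start site, had 1044, 633, 1666 and 1879 in the immunoprecipitate against 107, 115, 409 and 391 in the input, 1 of these inputs dim. That is 9.44-fold, at least 5.34-fold, 3.95-fold and 4.65-fold, a mean log2 ratio of 2.46 ± 0.55 in which every probe was past 2-fold. With the mean of the 3 inputs the Per1 window was at 0.66. Slc35e1, a solute carrier, had a similarly even mean of 2.39 ± 0.43, but all 3 inputs were dim and it was at 0.18 with the mean of the 3 inputs. Further means were 2.87 for Hsfy2, 2.36 for Rfwd3 and 2.31 for Rbm8a, and Shisa7, a brain membrane protein, averaged 8.57-fold with an SD of 2.75 on the log2 scale. The SMAD2 input was at least 2-fold below the mean of the SMAD1/5 and SMAD4 inputs in 9 of the 11 windows. The SMAD2 immunoprecipitate was at least 2-fold above the mean of the other immunoprecipitates in 5. The share of all windows with such differences was not counted.

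A second rule asked for agreement between neighbours: a window in which each of at least 3 probes was bright and past 2-fold in the same direction, in processed signals and again in mean minus background signals. Of 15974 genes with such a window to test, 61 were coherently high (0.382%) and 540 coherently low (3.38%). Low windows were thus the more frequent kind under this rule. With processed signals alone 153 genes were coherently high and 671 coherently low. Single probes past 2-fold over both arrays were 12.7% higher and 13.5% lower in processed signals. In mean minus background signals they were 9.07% higher and 14.9% lower. The part of the second signal in these counts was not tested. On the arrays of the other antibodies the same rule called 910 genes high (5.89%) and 1276 low (8.26%) for SMAD1/5, and 773 high (4.69%) and 200 low (1.21%) for SMAD4. Each antibody has 1 replicate, so these shares compare arrays and were not tested.

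Cog2, a subunit of the Golgi tethering complex, had a high window in 4 probes, on chromosome 8 from 123107239 to 123107724 as the array annotation gives it (genome build not given in the sources used here). Its 4 probes, at −729 to −302 bp from the start site, had 623, 797, 622 and 586 in the immunoprecipitate against 112, 120, 130 and 190 in the input. The mean log2 ratio was 2.22 ± 0.47, with all 4 probes above 2-fold, as the rule asks. Ccdc125, a coiled-coil protein, had 1434, 608, 726 and 677 against 270, 163, 131 and 140 in 4 probes 994 to 1386 bp inside the gene, a mean of 2.22 ± 0.25. Ctsw, a cathepsin of cytotoxic lymphocytes, had 500, 792 and 645 against 121, 186 and 156, a mean of 2.02 ± 0.02. In these 3 windows (Cog2, Ccdc125, Ctsw) the immunoprecipitate lay 0.39, 0.76 and 0.41 above its array median on the log2 scale, and the input lay at −1.92, −1.52 and −1.68 from its own. Cdk14, a cyclin-dependent kinase, was the highest of the 61 at 2.73 ± 2.21, with 846, 411 and 20580 against 276, 158 and 512, so its mean rests on the last of its 3 probes. Further means among the 12 highest were 2.22 for Atg4d, 2.06 for Gm4861, 2.03 for Muc4, 2.01 for Mak16, 2.00 for Rasa3, 1.98 for Rassf10 and 1.95 for Actn1. With the mean of the 3 inputs the same probes averaged 3.15 at Cdk14, 1.31 at Rasa3, 1.16 at Actn1 and 1.12 at Cog2. Ctsw was then at 1.08 and Ccdc125 at 1.05. Lower values were those of Gm4861 (0.62), Atg4d (0.57), Muc4 (0.49), Rassf10 (0.39) and Mak16 (−0.45).

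**Figure D1:**
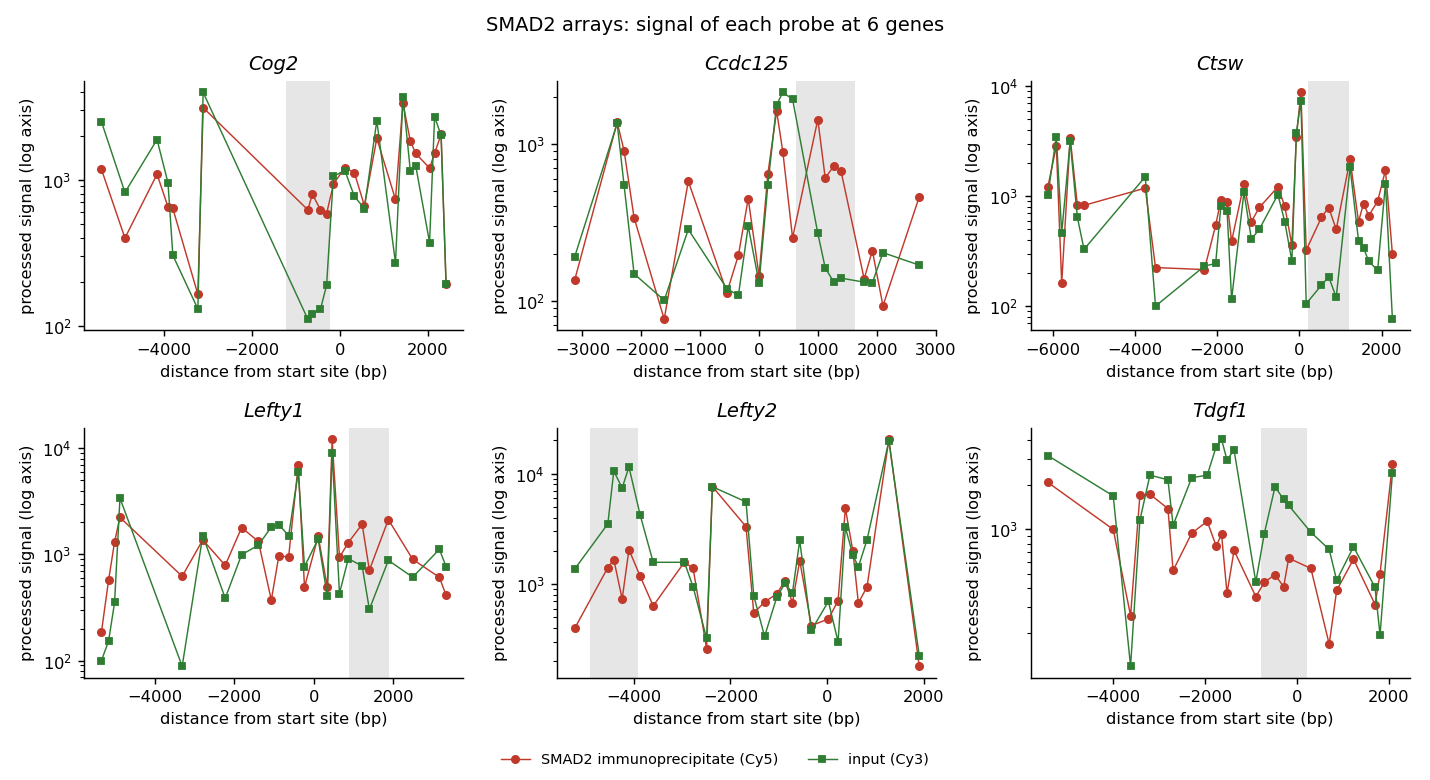
Processed signal (log axis) of every used probe at 6 genes against its distance from the annotated start site (bp), with the SMAD2 immunoprecipitate in red circles and its input in green squares; grey bands span 500 bp either side of the central probe of the called window. In the top row (Cog2, Ccdc125, Ctsw) and at Lefty1 the input falls below the immunoprecipitate inside the band, and at Lefty2 and Tdgf1 it rises above it.

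The 61 high windows were not gathered at start sites, and neither were the 540 low windows. Only 9 of the 61 central probes (14.8%) lay within 1000 bp of a start site, against 36.0% of probe and gene pairs over all windows that could be called. A further 23 were farther upstream and 29 farther inside the gene. Windows of exactly 3 probes made up 45 of the 61 (73.8%), against 18.1% of the windows that could be called. Of the 540 low windows, 94 (17.4%) lay within 1000 bp of a start site and 362 (67.0%) had exactly 3 probes. Both kinds are 1 window per gene in which every probe had to pass. The part of that rule in these shares was not tested. Means ran from 1.22 to 2.73 with a median of 1.72.

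Both channels of the 61 high windows were then set against the other preparations. The SMAD2 input was at least 2-fold below the mean of the SMAD1/5 and SMAD4 inputs in 49 of the 61 windows, and the SMAD2 immunoprecipitate was at least 2-fold above the mean of the other immunoprecipitates in 2. The median differences were −1.61 for the input and 0.15 for the immunoprecipitate. Against its own array median the input was lower in 57 of the 61 windows and the immunoprecipitate higher in 54, with medians of −1.30 and 0.59. In the 540 low windows the input was at least 2-fold above the other inputs in 321 and the immunoprecipitate at least 2-fold below the others in 46, with median differences of 1.22 and −0.20. The share of all windows that could be called with such differences was not counted. Over all promoters the SMAD2 input had a Pearson correlation of 0.556 with the SMAD1/5 input and 0.654 with the SMAD4 input. The rule chose these windows on the ratio to this same input, so the values describe the members and are not a test. The calls were repeated with the mean of the 3 inputs, 1 of which is the SMAD2 input, as denominator. This repeat used 1 ratio, without mean minus background signals. On 1 ratio to the SMAD2 input alone 153 genes were coherently high, all of the 61 among them. With the mean of the 3 inputs 130 genes were coherently high, and 4 of the 61 were among them: Cdk14, Cnp, Cxcl11 and Klf11. The part of the SMAD2 input in the calls cannot be separated this way and was not tested.

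**Figure D2:**
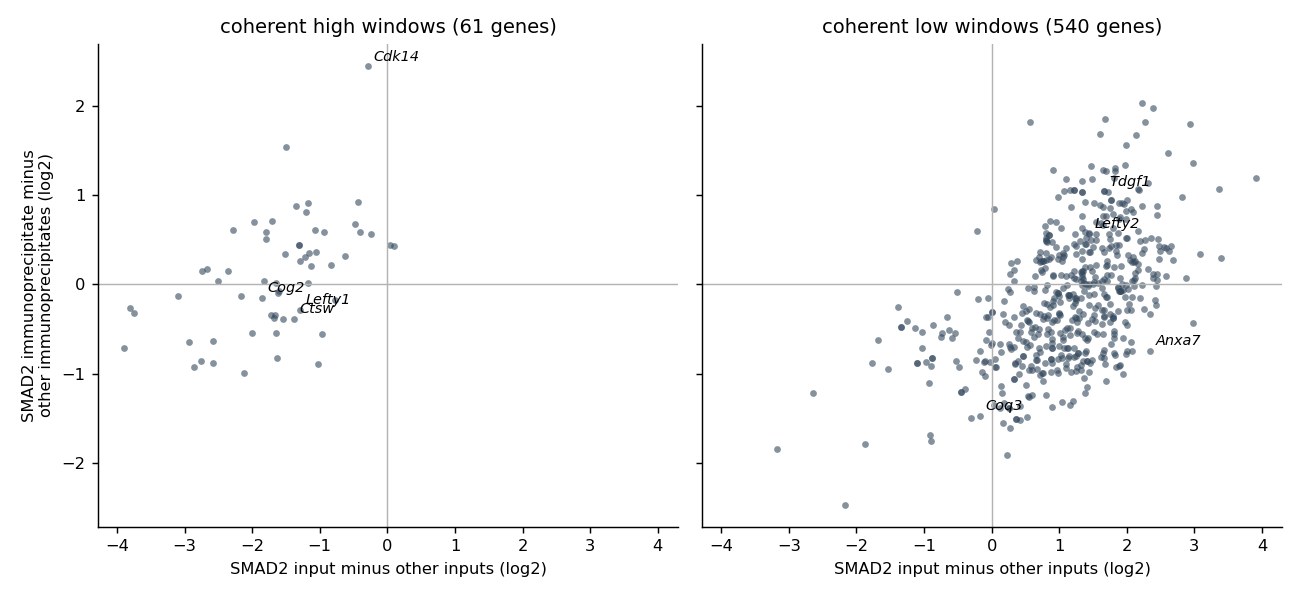
Each point is 1 gene's coherent window; the horizontal axis is the SMAD2 input minus the mean of the other 2 inputs and the vertical axis the SMAD2 immunoprecipitate minus the mean of the other 2 immunoprecipitates (both log2 of array-centred signal). The 61 high windows (left) lie mostly to the left of 0, with a median of −1.61 on the horizontal axis, and the 540 low windows (right) mostly to its right, with a median of 1.22.

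Klf11, a TGF-beta-inducible zinc finger repressor, was 1 of these 4; it, Bmp6 and Bcar1 were picked for description after their values were seen. Its 3 probes, at −2492 to −2104 bp, had 675, 842 and 1375 in the immunoprecipitate against 186, 202 and 521 in the input, a mean of 1.73 ± 0.34. The same window was at 2.00 on the SMAD1/5 arrays and 0.52 on the SMAD4 arrays, each against its own input. Bmp6, a BMP ligand, had 706, 311 and 980 against 237, 86.7 and 290 in 3 probes inside the gene, a mean of 1.68 ± 0.14, with −0.42 for SMAD1/5 and 0.74 for SMAD4. Bcar1, an adaptor at focal adhesions, had 880, 859 and 678 against 406, 253 and 141 upstream of its start site. That every probe of these 3 genes' windows was past 2-fold higher is what the rule asks. Only Klf11 of the 3 was also called with the mean of the 3 inputs.

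The genes in common are named after their values were seen. The coherent high genes of SMAD2 and SMAD4 had 2 in common, Cog2 and Slc29a3, which is 3.28% of the 61 and 0.259% of the 773, where SMAD4 called 4.69% of all genes high. With SMAD1/5 they had 7 in common, 11.5% of the 61 and 0.769% of the 910, where SMAD1/5 called 5.89% of all genes high: Ccdc102a, Cmtm3, Cog2, Ctsw, Klf11, Ovca2 and Slc34a3. In the 61 windows the SMAD4 ratio had a median of 0.23 and was past 2-fold higher in 8; over all windows that could be called it was past 2-fold higher in 8.78% on array 1 and 8.21% on array 2. The SMAD1/5 ratio had a median of 0.65 and was past 2-fold higher in 23, against 13.8% and 11.4% over all such windows. Coherent low genes had 18 in common with SMAD4 (3.33% of the 540, 9% of the 200), where SMAD4 called 1.21% of all genes low. With SMAD1/5 they had 45 in common (8.33% of the 540, 3.53% of the 1276), where SMAD1/5 called 8.26% low. Over all 16008 promoters the SMAD2 ratio had a Pearson correlation of 0.071 with the SMAD4 ratio and 0.049 with the SMAD1/5 ratio. The immunoprecipitate signals alone had correlations of 0.875 and 0.704, and genes share probes, base composition and tiling across arrays.

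The lowest coherent windows were those of Anxa7 (−2.79 ± 0.57), Coq3 (−2.52 ± 0.40), Lefty2 (−2.50 ± 0.84), Aaas (−2.47), Olfr1131 (−2.46) and Arl4a (−2.45). At Anxa7, an annexin, the immunoprecipitate had 109, 81.5 and 421 where the input had 942, 666 and 1795. At Coq3, an enzyme of ubiquinone synthesis, 4 probes had 249, 262, 317 and 220 against 975, 1338, 1984 and 1645. The Anxa7 input was 2.35 above the mean of the other inputs on the log2 scale. The Coq3 immunoprecipitate lay 1.47 below the mean of the other immunoprecipitates, and its input was at −0.18 from the mean of the other inputs. At Coq3 that mean joins unlike inputs. Centred on each array, the Coq3 input was at 1.49 for SMAD2, 3.92 for SMAD1/5 and −0.58 for SMAD4.

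Among the Nodal antagonists, Lefty1 and Lefty2 (secreted inhibitors that bind Nodal and its co-receptor) were called in opposite directions. At Lefty1, 3 probes 1214 to 1873 bp inside the gene had 1926, 711 and 2128 in the immunoprecipitate against 779, 304 and 879 in the input. The mean was 1.22 ± 0.04, the lowest of the 61 high windows, with 1.34 for SMAD1/5 and 0.06 for SMAD4 in the same window. The SMAD2 input there lay −1.29 from the mean of the other inputs. At Lefty2, 4 probes from −4531 to −4095 bp had 1412, 1669, 733 and 2051 against inputs of 3511, 10529, 7417 and 11471. That window was at −2.50 ± 0.84 for SMAD2, −2.32 for SMAD4 and 0.04 for SMAD1/5, and its input, centred on the array, was at 3.87, 4.18 and 0.68 on the log2 scale for the same antibodies. Neither gene was called by the coherent rule with the mean of the 3 inputs, where the same probes averaged 0.49 at Lefty1 and −1.68 at Lefty2. With 300 bp windows, and with at least 4 probes, Lefty1 was not called and Lefty2 was called low. Within 1000 bp of their start sites the promoter means were −0.01 for Lefty1 and −0.23 for Lefty2.

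Tdgf1 encodes Cripto, the co-receptor of Nodal, and was low around its start site. The 4 probes of its coherent low window, at −178 to −708 bp, had 639, 410, 495 and 439 in the immunoprecipitate against 1449, 1595, 1934 and 937 in the input, a mean of −1.60 ± 0.48. The window was at −1.11 for SMAD4 and −0.16 for SMAD1/5, and the SMAD2 input was 1.67 above the other inputs on the log2 scale. Its lowest window, centred at −1521 bp, was at −2.17 ± 0.70 over 5 probes, with −1.64 for SMAD4 and −2.60 for SMAD1/5. All 8 probes of its promoter mean were under 0 and 5 were past 2-fold lower, a mean of −1.26 ± 0.26 (SE over probes). With the mean of the 3 inputs Tdgf1 had no coherent low window and its promoter mean was −0.48.

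Promoter means, the average ratio of at least 3 probes within 1000 bp of a start site, were available for 16008 genes, with a median of 0.05 and an SD of 0.41. Past 1.5-fold higher were 1260 of these genes (7.87%), and past 1.5-fold lower 1105 (6.9%). Of 21 Nodal targets and feedback genes 20 were measured; 2 were higher (Smurf1, Foxh1), 2 lower (Cer1, Tdgf1), and the median was −0.07. Smurf1, a ubiquitin ligase that removes SMADs and receptors, averaged 0.78 ± 0.40 (SE over 10 probes), but −0.25 with the mean of the 3 inputs. Its 4 upstream probes had 452, 913, 270 and 179 in the immunoprecipitate against 111, 112, 83.6 and 103 in the input, of which the input of 83.6 was not well above background, and the probe 316 bp inside had 646 against 1715. Foxh1, the DNA-binding partner of SMAD2, averaged 0.73 ± 0.29 over 8 probes, but −0.18 with normexp background correction. Its highest probe, 635 bp inside the gene, had 804 against 151 and 2 of the 8 were under 0. Cer1, a secreted Nodal and BMP antagonist, averaged −0.83 ± 0.19 with all 13 probes under 0.

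The other feedback genes lay within 1.5-fold. Nodal itself averaged 0.26 ± 0.49 over 6 probes (−0.30 with normexp), with 630, 931, 273, 2460, 756 and 1032 in the immunoprecipitate against 371, 771, 394, 1920, 162 and 2490 in the input. Of these 6 probes, 2 had more input than immunoprecipitate. The inhibitory SMADs were at −0.39 (Smad7) and −0.11 (Smad6), the corepressors at 0.34 (Ski), −0.40 (Skil), 0.37 (Tgif1) and 0.05 (Tgif2), and the second SMAD ubiquitin ligase Smurf2 at −0.09. The Activin-binding protein Fst was at 0.01, the co-receptor Cfc1 at −0.11, the pseudoreceptor Bambi at −0.26, and Dact2 and Ldlrad4, dampers of receptor signalling, at −0.05 and −0.15.

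Of 32 pathway components 27 were measured, with a median of 0.08, none past 1.5-fold higher and 2 lower. Gdf3, a Nodal-related ligand of embryonic stem cells, averaged −0.76 ± 0.40, and Acvr1, a type I receptor, −0.61 ± 0.34. Among ligands the highest were Inha at 0.42, Bmp4 at 0.38 and Tgfb2 at 0.37, and among the SMAD genes themselves Smad2 was at −0.27 (0.27 with normexp), Smad3 at −0.01 and Smad4 at 0.00. Trim33, a ubiquitin ligase that acts on SMAD4, was at 0.36. The other components lay between these values.

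**Figure D3:**
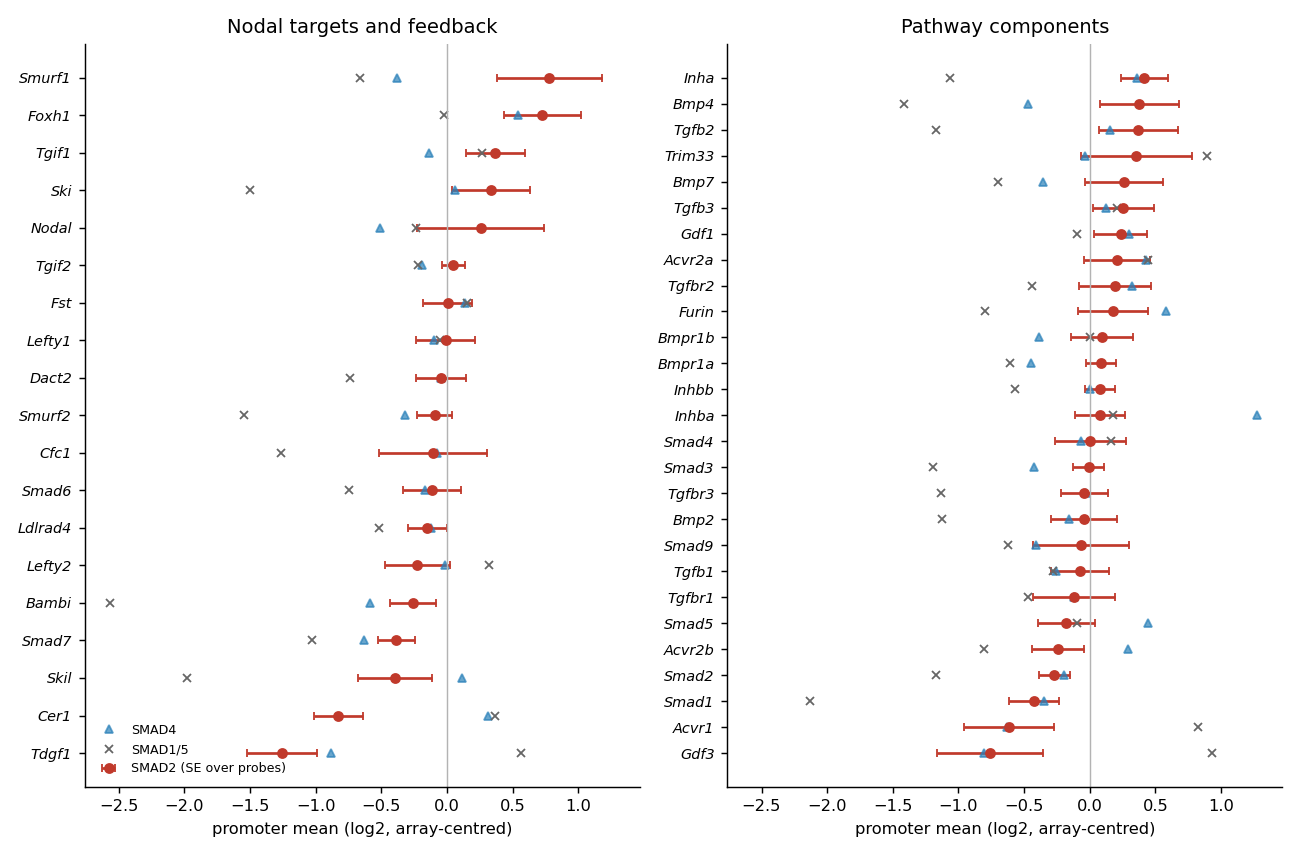
Promoter means (log2, array-centred) of Nodal targets and feedback genes (left) and 27 pathway components (right); red points with bars are SMAD2 with the SE over probes of 1 array, blue triangles SMAD4 and grey crosses SMAD1/5, each against its own input. SMAD2 means run from −1.26 (Tdgf1) to 0.78 (Smurf1), while those of SMAD1/5 reach −2.57 at Bambi.

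Each pathway gene's highest window was also taken anywhere in its tiled region. The largest were those of the corepressor Ski (1.89 ± 1.27, 4 probes, 2 with dim input) and Smurf1 (1.84 ± 0.92, 4 probes, 1 dim). The Activin receptor Acvr1b came next (1.65 ± 0.72, 5 probes, 1 dim, 1878 bp inside the gene). Acvr1 followed at 1.37 (4 probes, 3 dim), Tgfbr3 at 1.33, Bmpr1b at 1.32 and Lefty1 at 1.22. After these came Smad7 at 1.21 (4 probes, 1 dim), Smad5 at 1.15 and Inha at 1.12. None of these reached the height rule, and Lefty1 alone met the coherent rule. Among the lowest windows were those of Lefty2, Tdgf1, the TGF-beta type I receptor Tgfbr1, Skil (−1.78), Smad9 (−1.43), Fst (−1.39) and Acvr2b (−1.34). Tgfbr1 was coherently low at −1.80 ± 0.51, with 512, 153 and 282 in the immunoprecipitate against 1144, 637 and 1147 at −4319 to −3991 bp.

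Other gene lists were counted the same way against 7.87% higher and 6.9% lower over all promoters. Among 24 TGF-beta response genes 3 were higher and none lower: the matrix genes Mmp2 (0.87) and Col1a1 (0.84) and the AP-1 factor Junb (0.63). None of the 24 had a coherent high window and 1 had a coherent low window (−1.48 ± 0.09). Over all genes tested these shares were 0.382% and 3.38%. Among 20 BMP targets none was higher and 1 lower, Dpysl2 (−0.94). Among 24 mesendoderm genes Cxcr4 (−0.65) and Kdr (−0.60) were lower, and among 25 pluripotency genes none was higher and Tdgf1 and the nuclear receptor Nr5a2 (−0.95) lower. Nog and Sox17, an antagonist of BMPs and an endoderm factor, named here after their values were seen, had coherent low windows of −1.97 and −1.46. Replication and cell cycle genes had the largest share higher, 6 of 32 (18.8%) with none lower, among them the origin factor Cdc6 (0.74), the helicase subunits Mcm2 (0.73) and Mcm4 (0.71) and the kinase Cdk4 (0.69). With the mean of the 3 inputs as denominator this list had none higher and 5 lower, and Cdc6, Mcm2 and Cdk4 changed sign. Over all promoters 2.89% were higher and 12.7% lower with that denominator.

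Adhesion and polarity genes had 2 of 27 higher (Llgl2 0.69, Ilk 0.63) and 2 lower (Cdh1 −0.62, Itga3 −0.59). Chromatin regulators had 3 of 23 in each direction, with the Polycomb genes Cbx2 (0.76), Pcgf2 (0.71) and Ring1 (0.62) higher, and among the lower Rnf2 (−0.98), of the same repressive complex, and Ezh2 (−0.82), the methyltransferase of the other Polycomb complex. Cbx2 also had a coherent low window, −1.47 over 3 probes around −2555 bp. Ribosomal protein genes had 8 of 84 higher, led by Rpl6 (1.13), Rpl26 (1.02), Rpl8 (0.96) and Rps28 (0.95), and 5 lower, with Rps15a (−0.88) and Rpl37a (−0.71) the lowest. Adult tissue genes had 1 of 30 higher (Krt1 0.68), and Hox genes 1 of 33 higher (Hoxb1 0.87) and 2 lower (Hoxa9 −0.87 the lowest). Of the genes named in this paragraph, all past 1.5-fold, Cbx2, Rpl8 and Hoxa9 changed sign with the mean of the 3 inputs, Cbx2, Ring1, Rpl26 and Rps28 with normexp, and Llgl2 when probes were taken within 500 bp.

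Olfactory receptor genes, silent in most tissues, stood lowest as a group. Of 728 measured, 22 were higher (3.02%) and 168 lower (23.1%), from −2.27 at Olfr559 to 1.34 at Olfr1513, with a median of −0.26. The list median lay −0.29 from that of all genes on array 1 and −0.31 on array 2, while for SMAD4 the same differences were −0.02 and 0.03 and for SMAD1/5 −0.37 and 0.03. Of the 728, 41 had a coherent low window, where 3.38% of all genes tested had one. Of the 728, 618 had a promoter sequence for GC content, with a median of 35.5% GC, as had 12563 of all 16008 genes. In the lowest of 5 GC bins, where 15.9% of genes were past 1.5-fold lower, 590 olfactory receptor genes had a median of −0.26 and 1928 other genes −0.06. With normexp the list median was −0.05 and with the mean of the 3 inputs −0.11 relative to all genes.

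**Figure D4:**
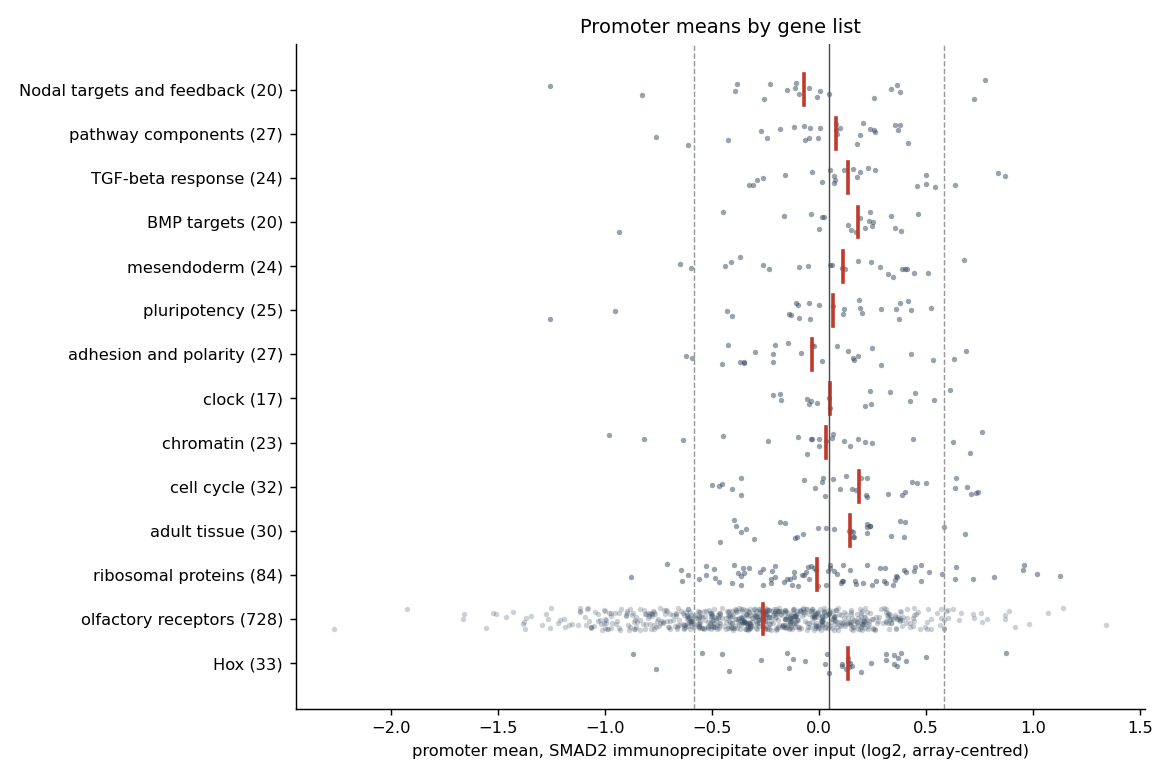
Promoter means (log2, array-centred) of the SMAD2 arrays by gene list, 1 point per gene, with the number measured in brackets; red bars are list medians, the solid line is the median of all 16008 promoters (0.05) and dashed lines mark 1.5-fold. The list medians run from −0.07 to 0.18 except that of the olfactory receptors, at −0.26.

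Around start sites both channels rose together. Immunoprecipitate and input both peaked in the first 250 bp inside the gene, at 0.87 and 0.75 on array 1 and 0.86 and 0.76 on array 2, relative to the array median. The ratio was nearly flat by comparison, highest from 250 to 500 bp inside at 0.08 and 0.09. Probes within 250 bp of a start site exceeded those 2000 to 4000 bp upstream by 0.08 ± 0.0072 (SE over probes) on array 1 and 0.07 ± 0.0071 on array 2. With the mean of the 3 inputs as denominator the difference was −0.09 and −0.07.

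**Figure D5:**
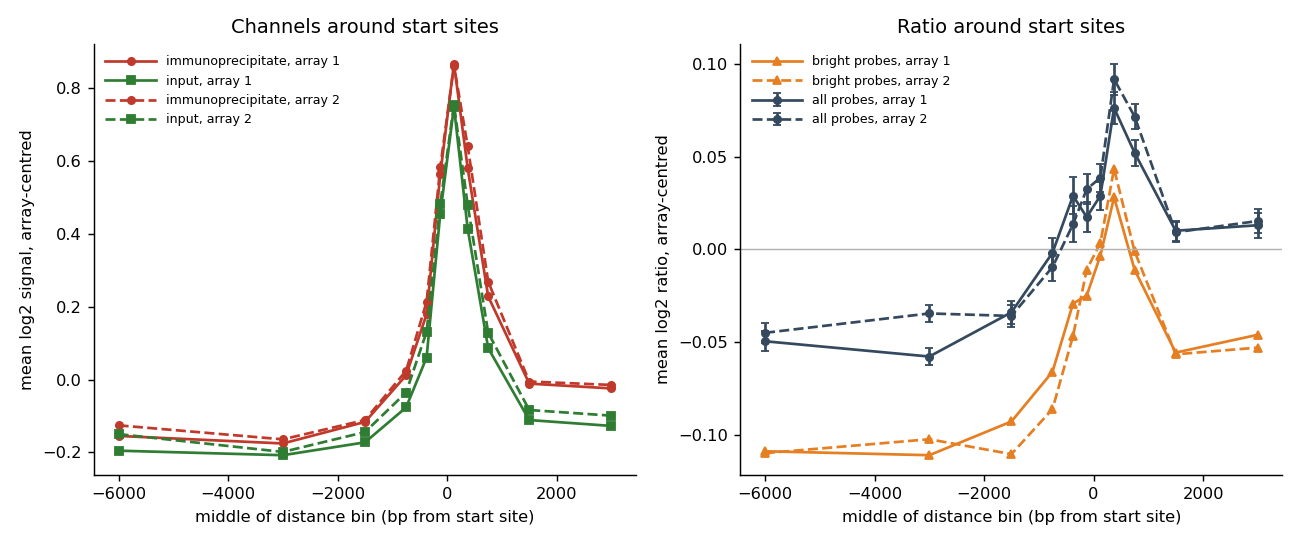
Mean signal of each channel (left, log2, array-centred) and mean log2 ratio (right) of the SMAD2 arrays by distance from the start site, plotted at the middle of each distance bin in bp; solid lines are array 1, dashed lines array 2, bars the SE over probes, and orange triangles the ratio of bright probes only. Both channels peak in the first 250 bp inside genes (0.87 and 0.75 on array 1), while the ratio of all probes stays at or below 0.09.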

How the data were processed

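Each scanner file, as deposited, gives an intensity per spot and channel (mean signal, local background and processed signal) with other values such as outlier flags and distances to genes; processed intensity was background-subtracted and dye-normalised by Agilent Feature Extraction 9.1.3.1, per the file headers. The authors' deposited log2 values of the same arrays were used as an alternative; the submitters' processing notes name limma without a version. Control and outlier spots were left out, and log2 of processed red over green signals was centred on the array median. Ratios were computed with Python 3.11.15, numpy 2.4.6 and pandas 2.3.3, and normexp (offset 50) and loess alternatives with limma 3.58.1 in R 4.3.3. Gene names in the files were matched to RefSeq: 16166 of 16859 by accession, 306 by symbol, 196 by an older name, and 191 kept the file's name. Distances to start sites came from the probe annotation of the SMAD4 files. The window rules were run on simulated data with independent probe values, every probe set bright and shifts added to whole windows. On the SMAD2 arrays neighbouring ratios had correlations of 0.348 and 0.356 and some inputs were dim. The simulation therefore checks the code and not how often the rules err on these arrays. With 1 array per probe set no test was run, and the number of arrays limits the precision.

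Named are all measured Nodal feedback genes and pathway components, every gene past the height rule, the 12 highest and 6 lowest coherent windows, and up to 4 highest and 2 lowest promoter means of each other list. Some genes that meet this rule are not reported here. The members and lists were chosen with earlier results of these data known.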

Additional observations from a re-analysis of the deposited data

Results flagged for a closer look

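The sign of the ratio near start sites differed between antibodies on both arrays. Probes within 250 bp of a start site minus those 2000 to 4000 bp upstream gave 0.081 on array 1 and 0.070 on array 2 for SMAD2, −0.30 and −0.49 for SMAD1/5, and −0.20 and −0.20 for SMAD4 (log2). The difference between antibodies was not tested, since each has 1 array per probe set, and for SMAD2 the sign turned with the denominator. SMAD2 and SMAD1/5 signals were read by the same scanner software and protocol, SMAD4 signals by a later version, and the part of this in the result was not tested.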

How the results depend on the processing

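No paired analysis was possible because each antibody has 1 replicate, and no replicate could be left out. The count of 11 high genes by the height rule was 4 with mean minus background signals, 2 with normexp, 5 with the authors' values, 5 with the mean of the 3 inputs, 7 with bright probes only, 7 with at least 4 probes and 3 at a height of 5. Of the 11 genes, 3, 2, 3, 1, 4, 5 and 3 were among these, in that order. The 56 low genes became 85 with mean minus background signals, 5 with normexp, 96 with loess, 115 in the authors' deposited values, 513 with the mean of the 3 inputs and 4 at a height of 5. The 61 coherent high genes became 243 with 300 bp windows, 16 with at least 4 probes and 636 at 1.5-fold. They became 174 without the brightness rule and 153 with processed signals alone. Loess and the mean of the 3 inputs were also run on 1 ratio, without mean minus background signals, and gave 120 and 130. Those counts therefore compare with 153 and not with 61. The 540 coherent low genes became 1436 with 300 bp windows, 209 with at least 4 probes and 1903 at 1.5-fold. With processed signals alone there were 671. With the mean of the 3 inputs, again on 1 ratio, there were 565, which shared 77 with the 540. Probes past 2-fold higher, 12.7% over both arrays, were 8.37% in the authors' values. Promoters past 1.5-fold higher were 4.85% with mean minus background signals, 4.29% in the authors' log2 values and 2.89% with the mean of the 3 inputs, and those lower 15.2% with normexp and 12.7% with the mean of the 3 inputs.

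The start site difference on array 1 was 0.16 with mean minus background signals, 0.21 with normexp, 0.16 with loess, 0.14 in the authors' values, −0.095 with the mean of the 3 inputs, 0.10 for bright probes and 0.057 against 1000 to 2000 bp upstream; on array 2 it was 0.13, −0.56, 0.14, 0.12, −0.070 and 0.10 for the first 6 of these. Of the named promoter means past 1.5-fold, those that changed sign with the mean of the 3 inputs were Smurf1 (−0.25), Cbx2 (−0.039), Cdc6 (−0.16), Mcm2 (−0.088), Cdk4 (−0.0090), Rpl8 (−0.12), Olfr1513 (−0.15), Olfr399 (−0.020) and Hoxa9 (0.079), and with normexp Foxh1 (−0.18), Cbx2 (−0.025), Ring1 (−0.43), Rpl26 (−0.12) and Rps28 (−0.26). Means within 1.5-fold also changed sign, among them Nodal (−0.30), Tgfbr2 (−0.37), Bmpr1a (−0.66) and Smad2 (0.27) with normexp. Within 500 bp Llgl2 was at −0.15 and Mcm2 at −1.08, and the windows of Pard3 (−0.36 with normexp, −1.30 in the authors' values) and Mak16 (−0.45 with the mean of the 3 inputs) also changed sign. Normexp values had a correlation of 0.881 with the reported ratios on array 1 and 0.460 on array 2; the cause was not tested. Of the other values, 1218 stayed within the limit set for their kind and 180 did not. That limit was the SD over probes for promoter and window means. It was a margin from the SE over genes for list medians and a 1.5-fold change for counts of list members.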

Other observations

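Among the highest promoter means of all 16008 genes, chosen after their values were seen, were those of Jmjd4 (1.70), a hydroxylase of translation termination, the histone gene H2bc6 (1.60), Rnf43 (1.57), a ubiquitin ligase that removes Wnt receptors, Bdh1 (1.55), Obp2a (1.55) and Dennd4b (1.51). The peptide-loading factor Tapbp was at 1.45. Among the lowest were Olfr559 (−2.27), Olfr924 (−1.93), Tgfbrap1 (−1.69), a TGF-beta receptor-associated protein, Olfr152 (−1.67) and the malic enzyme Me1 (−1.62). By chromosome, the median ratio over all probes on array 2 was highest for mitochondrial DNA, at 1.21 over 43 probes. It was 0.083 on chromosome 15, 0.058 on chromosome 11, −0.095 on X and −0.167 on Y.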
